A study of Mus musculus with 14 samples.

Results

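The genes described here are those of the cellular response to low oxygen and of glycolysis, the breakdown of glucose to pyruvate and lactate. A list of 37 genes was taken, and each gene was represented by its brightest probe set (mean log2 intensity over the 14 arrays) among those annotated to that symbol alone. Of the 37 genes, 33 had such a probe set, with 69 probe sets in all out of 22690 on the array, and 27 passed the intensity filter and were tested. Epas1, Adm, Car9, P4ha2 and Hmox1 lay under the filter, and Gapdh was carried by 3 control probe sets of the array only. Eno1, Gpi1 and Ankrd37 had no probe set in the annotation used here, and the 3 probe sets of Bnip3l were shared with its pseudogene, so no value is given for these 4 genes.

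The study compared mouse brains that differ in the parental origin of 2 chromosome segments. All animals were T9H/+, heterozygous for a translocation between chromosomes 7 and 15. MatDp7 animals carried both copies of the proximal part of chromosome 7 from the mother and both copies of that of chromosome 15 from the father, and in PatDp7 animals both origins were reversed. Affymetrix 430A arrays measured each duplication in neonatal cortex (labelled as forebrain), neonatal cerebellum and whole brain at 15.5 days post coitum (dpc), with 2 arrays each, and in 13.5 dpc brain, with 1 array each. No group with a normal copy from each parent is among the 14 arrays. The replicates are labelled as biological, but the labels name neither animals nor pools, so p-values measure the spread between these samples.

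Cells sense oxygen through prolyl hydroxylases such as those encoded by Egln1 and Egln3, which mark the alpha subunits of hypoxia-inducible factor (HIF), encoded by Hif1a and Epas1, for destruction while oxygen is present. When oxygen falls, HIF persists and binds a short DNA core, ACGTG or GCGTG, near genes for glucose uptake, glycolytic enzymes, vessel growth and mitochondrial turnover. In brain, Slc2a1 encodes the glucose transporter of the blood-brain barrier and of glia, Slc2a3 that of neurons, and several glycolytic steps are shared between isozymes that are typical of neurons, of dividing cells or of muscle.

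The promoters of 7 members that the results turn on are printed to show where this core lies, as 160 bases before the transcription start, 5′ to 3′ on the strand of the gene, with ACGTG and GCGTG on either strand in capitals (CACGT and CACGC are their reverse complements). The sequences are from RefSeq, build GRCm38.p6. Slc2a1 lies at chr4:119108585-119108744 (plus strand), Hif1a at chr12:73907707-73907866 (plus), Ldha at chr7:46845644-46845803 (plus) and Pgk1 at chrX:106186940-106187099 (plus). Higd1a lies at chr9:121857797-121857956 (minus), Kdm3a at chr6:71632918-71633077 (minus) and Eno2 at chr6:124769674-124769833 (minus).
Slc2a1: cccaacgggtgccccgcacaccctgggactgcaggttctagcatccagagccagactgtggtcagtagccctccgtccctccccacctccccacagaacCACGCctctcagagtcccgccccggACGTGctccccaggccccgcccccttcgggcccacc
Hif1a: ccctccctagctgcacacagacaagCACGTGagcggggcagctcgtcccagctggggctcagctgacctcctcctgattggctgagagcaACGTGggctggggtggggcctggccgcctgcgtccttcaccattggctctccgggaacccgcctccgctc
Ldha: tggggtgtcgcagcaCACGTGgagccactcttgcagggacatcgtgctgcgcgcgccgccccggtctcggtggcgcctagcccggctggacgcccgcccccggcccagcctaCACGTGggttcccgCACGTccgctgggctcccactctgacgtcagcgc
Pgk1: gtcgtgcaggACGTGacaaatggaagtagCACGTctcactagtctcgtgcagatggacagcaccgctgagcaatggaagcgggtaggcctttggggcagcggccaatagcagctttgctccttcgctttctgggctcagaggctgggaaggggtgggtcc
Higd1a: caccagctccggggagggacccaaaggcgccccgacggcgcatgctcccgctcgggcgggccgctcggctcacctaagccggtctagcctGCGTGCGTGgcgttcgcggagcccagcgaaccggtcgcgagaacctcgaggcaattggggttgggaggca
Kdm3a: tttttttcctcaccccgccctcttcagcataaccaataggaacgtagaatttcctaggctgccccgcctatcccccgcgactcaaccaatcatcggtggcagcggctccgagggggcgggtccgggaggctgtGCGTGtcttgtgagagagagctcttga
Eno2: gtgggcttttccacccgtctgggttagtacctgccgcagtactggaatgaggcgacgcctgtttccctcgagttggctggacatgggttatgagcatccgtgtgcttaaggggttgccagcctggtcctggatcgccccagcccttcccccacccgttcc

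Ldha and Pgk1 hold ACGTG on both strands, and Ldha and Hif1a hold it within CACGTG, which is also the core of the E-box bound by other factors. Higd1a and Kdm3a hold GCGTG only, and the printed window of Eno2, a neuronal isozyme, holds neither. Over 250 bases before the start, ACGTG was found in 15 of the 32 members with a RefSeq promoter entry (46.9%) and in 16.5% of 27025 promoters of the same length, taking the most upstream start of each gene. GCGTG was found in 16 of 32 members (50%) and in 28.3% of all promoters, and CACGTG in 4 of 32 (12.5%) and 6.04%. A match is a description of the letters and not of binding, and these arrays measured no binding.

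The level of each member on each array is shown in the heat map. The main division in it runs between the replicate 1 and replicate 2 arrays of the newborn tissues, and beside it the 13.5 dpc arrays stand apart for Eno2, Hk1 and Hmox1.

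**Figure D1:**
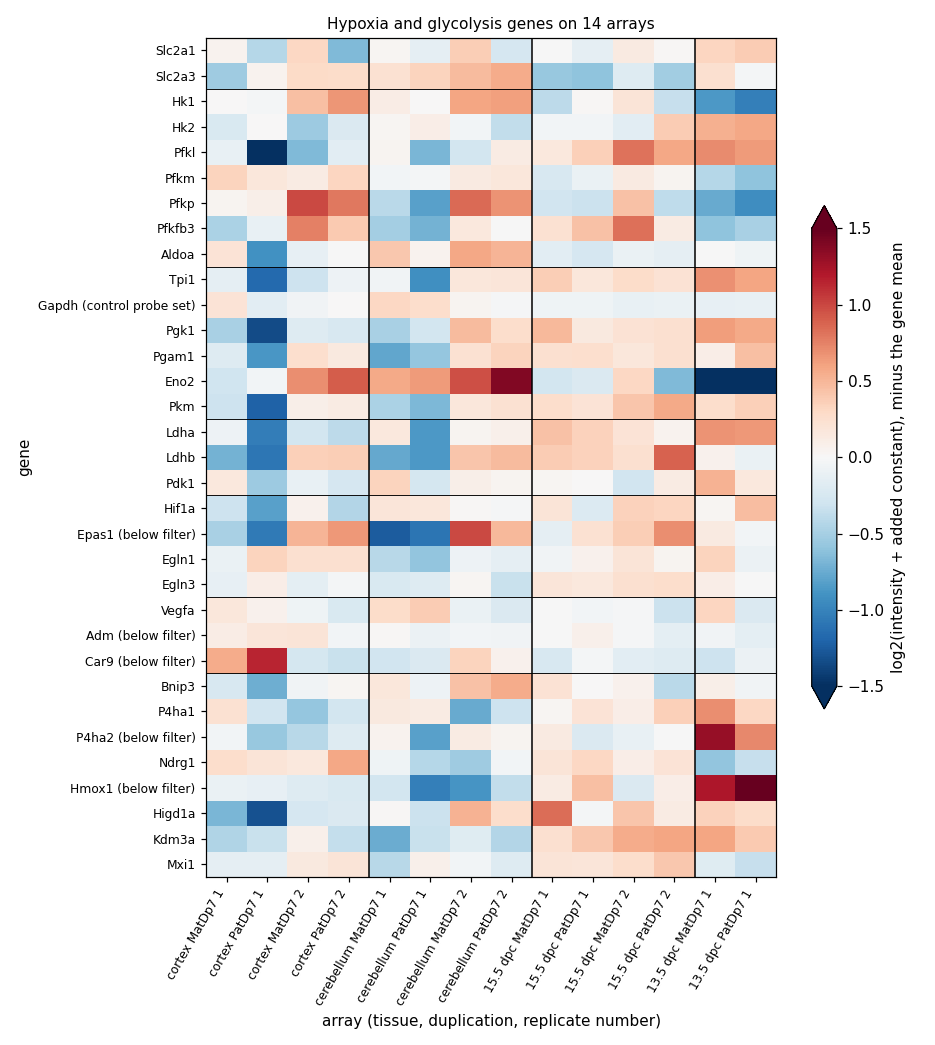
Heat map of 33 members (rows, ordered by role and separated by lines) on 14 arrays (columns, ordered by tissue, replicate number and duplication). Colour gives log2(intensity + 52.0273) minus the mean of the gene, with values beyond 1.5 in either direction in the end colours. Eno2 has the end colour on both 13.5 dpc arrays, and the cortex PatDp7 replicate 1 column is blue for most glycolytic genes.

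The newborn replicate 1 arrays stood apart in a control signal. The 3′ beta-actin control probe set read 39780 to 54879 on these 4 arrays, 5406 on 15.5 dpc MatDp7 replicate 2 and 13222 to 15749 on the other 9. The ratio of its 3′ to its 5′ signal was 1.45 on 15.5 dpc MatDp7 replicate 2 and 0.97 to 1.11 elsewhere. Xist, the transcript that silences an X chromosome in females, read 201 to 437 on the newborn replicate 1 arrays and 2882 to 5108 on the newborn replicate 2 arrays. It also divided the 15.5 dpc numbers, with 217 and 198 on replicate 1 and 5323 and 4329 on replicate 2 (MatDp7 and PatDp7). Each number holds 1 array of each duplication in each of these tissues. The summed intensity of 5 forebrain markers was 6320 to 8379 in newborn cortex and 468 to 735 in newborn cerebellum. That of 7 cerebellum and hindbrain markers was 2859 to 9271 in cortex and 6409 to 10403 in cerebellum, with overlap. Of these 7 markers 6 were lower and 1 was higher in cortex.

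Members followed this division no more often than all tested probe sets, but those that did were mostly higher on replicate 2 (11 higher and 2 lower). Between replicate 2 and replicate 1, 13 of 27 tested members (48.1%) moved the same way in all 4 newborn groups, where 54.8% of all 13576 tested probe sets did so (29.6% higher and 25.2% lower on replicate 2). Representative probe sets higher on replicate 2 were those of Slc2a3, Hk1, Pfkp, Pfkfb3, Pgk1, Pgam1, Eno2, Pkm, Ldhb, Bnip3 and Higd1a. Those of Hk2 and Vegfa were lower. The other Vegfa probe set went the other way, from 165, 27.5, 211 and 86.3 to 258, 264, 230 and 197 (groups ordered as for Ldhb below). The other Pfkfb3 probe set was higher on replicate 2 in cortex PatDp7 alone. Pgk1 probe sets 1417864_at and 1439435_x_at were lower in cortex MatDp7 and in cerebellum PatDp7, respectively. Ldhb, the heart-type lactate dehydrogenase subunit, read 1655, 1266, 1587 and 1478 on the newborn replicate 1 arrays and 3526, 3559, 3664 and 3823 on replicate 2, for cortex MatDp7, cortex PatDp7, cerebellum MatDp7 and cerebellum PatDp7. On this representative probe set the newborn values of Ldhb form a low and a high set with no overlap. Both sets hold both tissues and both duplications. Ldhb probe set 1448237_x_at also had no overlap, while on 1434499_a_at and 1455235_x_at the 2 sets overlapped. The platelet isozyme of phosphofructokinase, Pfkp, read 502, 521, 354 and 253 on replicate 1 and 1013, 880, 916 and 808 on replicate 2 in the same order. At 15.5 dpc the difference between the 2 numbers was 0.07 at the median of the members in MatDp7 and 0.11 in PatDp7 on the log2 scale, against 0.27 to 0.51 in the newborn groups. The median over all tested probe sets was -0.0062 and 0.02 at 15.5 dpc and 0.0075 to 0.05 in the newborn groups. The part of sex, animals or array handling in this division was not tested.

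**Figure D2:**
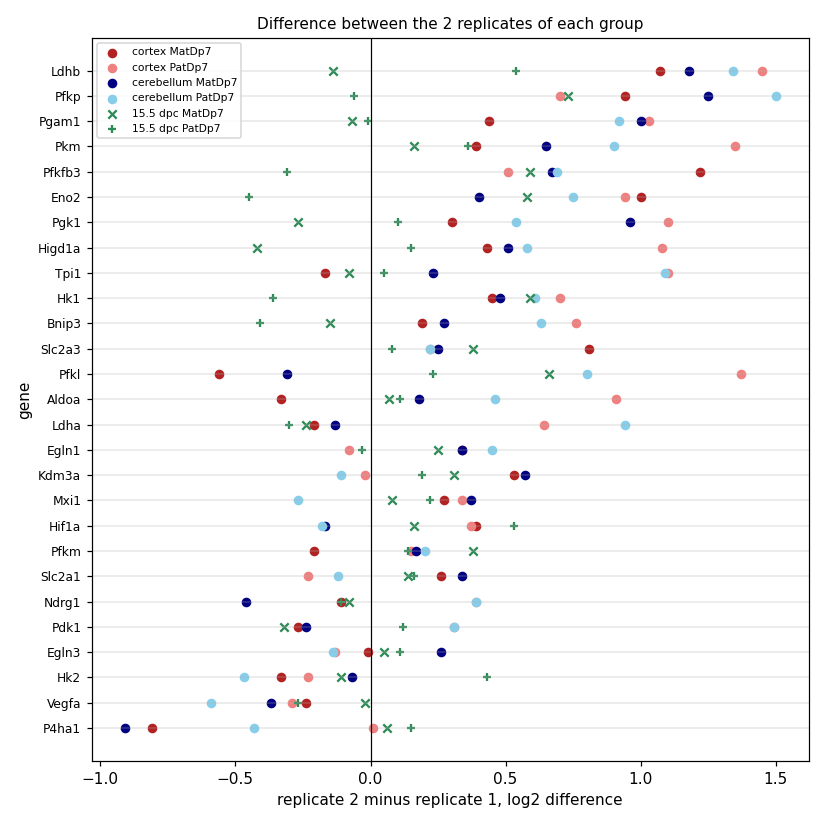
Replicate 2 minus replicate 1 on the log2 scale (x axis) for 27 tested members (y axis, ordered by their newborn mean), with 4 newborn groups as filled points and both 15.5 dpc groups as green crosses. Ldhb, Pfkp and Pgam1 have the highest newborn means, 1.26, 1.10 and 0.85, and P4ha1 the lowest, -0.54.

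The first comparison asked whether the parental origin of the duplicated segments changes these genes. No member was called in PatDp7 against MatDp7, as the mean of the 3 replicated tissues (0 of 27, limma with Benjamini-Hochberg adjustment over 13576 probe sets, 1 member at an unadjusted p under 0.05), where 0.133% of all probe sets were called. No member was called within newborn cortex (background 0.0737%), newborn cerebellum (0.11%) or 15.5 dpc brain (0.0737%), nor in the F-test of a parental difference that varies between tissues (0%), and none with the newborn replicate number as a block (background 0.192%, 0.133%, 0.155%, 0.11% and 0.0221% in the same order). The median difference of the members was -0.10, with 17 lower and 10 higher in PatDp7, beside 0.00024 over all probe sets. It was 0.00 without cortex PatDp7 replicate 1, -0.01 without cerebellum PatDp7 replicate 1, -0.02 and -0.04 without MatDp7 replicate 2 of cortex and of cerebellum, -0.16 without cerebellum MatDp7 replicate 1, and -0.23 and -0.21 without PatDp7 replicate 2 of cortex and of cerebellum.

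Slc2a1 had the lowest p of the members. Its representative probe set 1426600_at read 792 and 956 in cortex MatDp7 and 552 and 461 in cortex PatDp7 (replicates 1 and 2). In cerebellum it read 778 and 997 in MatDp7 and 688 and 631 in PatDp7, and at 15.5 dpc 757 and 838 against 688 and 773. Both newborn tissues thus had every PatDp7 array under every MatDp7 array, and the 15.5 dpc values overlapped. The difference was -0.41 ± 0.121 (SE) over the 3 tissues on the log2 scale, lower in 6 of 6 same-numbered pairs (unadjusted p = 0.00738, limma adjusted p = 1, and 0.459 with the replicate block). By tissue it was -0.73 ± 0.209 in cortex, -0.39 ± 0.209 in cerebellum and -0.12 ± 0.209 at 15.5 dpc, and the F-test between tissues gave an adjusted p of 1. At 13.5 dpc, with 1 array each, MatDp7 read 965 and PatDp7 1007.

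The other 2 Slc2a1 probe sets ran the same way in the newborn brain. Probe set 1426599_a_at read 464 and 681 in cortex MatDp7 against 231 and 299 in PatDp7, and 529 and 701 against 310 and 308 in cerebellum. Probe set 1434773_a_at read 556 and 768 against 380 and 309 in cortex, and 640 and 973 against 475 and 534 in cerebellum. Over the 3 probe sets, 12 of 12 newborn pairs and 5 of 6 pairs at 15.5 dpc were lower in PatDp7, but the probe sets share their RNA samples and are not independent. Their differences over the 3 tissues were -0.62 ± 0.143 (adjusted p = 0.905, and 0.0646 with the block) and -0.56 ± 0.15 (adjusted p = 1, and 0.268 with the block), so no Slc2a1 probe set passed the threshold. Among all probe sets, 2.88% were lower in PatDp7 in 6 of 6 pairs, and 2 of 27 members were, Slc2a1 and Hif1a.

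Slc2a1 is made by brain endothelium, so endothelial markers are given beside it. The summed intensity of 11 such markers ran from 3283 to 4975 on newborn MatDp7 arrays and from 3566 to 5805 on newborn PatDp7 arrays, and the ranges overlapped. Of the 10 tested none was called, with 7 higher in PatDp7 in cortex (median 0.11), 7 lower in cerebellum (median -0.11) and 9 higher at 15.5 dpc (median 0.22). The sum also went with the replicate number, at 4307 to 5805 on newborn replicate 1 and 3283 to 3840 on replicate 2. Much of this was Kdr, at 1437, 1988, 1723 and 1860 on replicate 1 and 340, 351, 394 and 381 on replicate 2. The order is cortex MatDp7, cortex PatDp7, cerebellum MatDp7 and cerebellum PatDp7. Flt1 was also lower on replicate 2 in each group. Cldn5 and Pecam1 were lower on replicate 2 in cortex MatDp7 and higher in the other groups, and Cdh5 and Tek were mixed. All 10 meningeal markers were lower in PatDp7 in cortex (median -0.34) and in cerebellum (median -0.88), as Slc2a1 was, and 8 of 10 were higher at 15.5 dpc (median 0.22), with none called. All 4 tested choroid plexus markers were also lower in PatDp7 in cortex (median -0.50), with none called. In cerebellum 2 were lower and 2 higher (median 0.02), and at 15.5 dpc 3 were lower and 1 higher (median -0.04). The part of these cell types in the Slc2a1 values was not tested. In whole tissue, fewer cells of a type and less RNA per cell cannot be told apart.

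**Figure D3:**
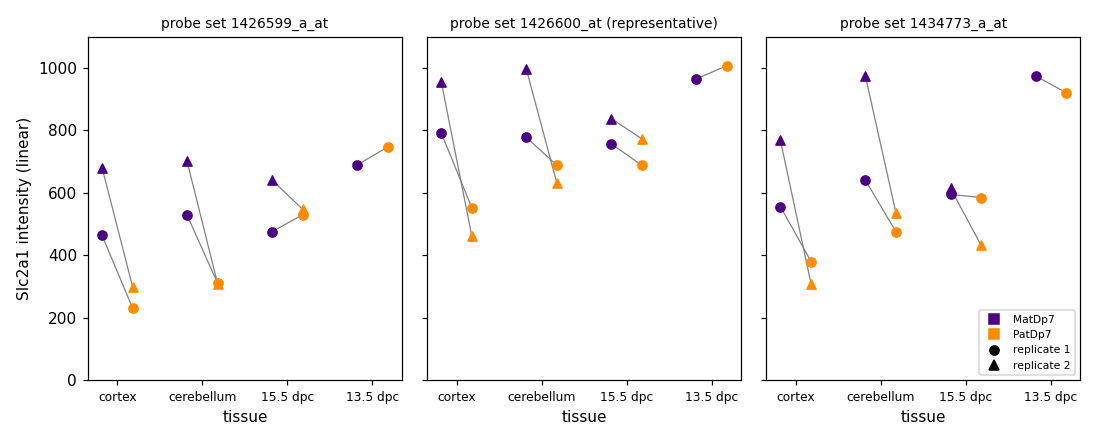
Linear intensity of the 3 Slc2a1 probe sets (panels) on 14 arrays by tissue (x axis), with lines joining MatDp7 and PatDp7 arrays of the same replicate number. All lines in cortex and cerebellum slope down from MatDp7 to PatDp7. At 13.5 dpc the representative probe set reads 965 and 1007.

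Ldha and Tpi1 had their lowest values on the PatDp7 replicate 1 arrays of both newborn tissues. In cortex the median difference of the 27 members was -0.37 between the replicate 1 arrays, with 19 members lower, and 0.03 between the replicate 2 arrays, with 11 lower. Cortex PatDp7 replicate 1 was the lowest of all 14 arrays for 12 of 27 members, while it was the lowest for 16% of all tested probe sets. Ldha, the muscle-type lactate dehydrogenase subunit, read 2745 and 2373 in cortex MatDp7 and 1381 and 2186 in PatDp7, and in cerebellum 3239 and 2965 against 1568 and 3046. Triosephosphate isomerase, Tpi1, read 2387 and 2110 against 1141 and 2504 in cortex, and 2536 and 2982 against 1374 and 2986 in cerebellum. In both genes the newborn PatDp7 replicate 1 arrays held the lowest values and the replicate 2 arrays lay near their MatDp7 partners.

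Ldha differed by -0.54 ± 0.333 in cortex and -0.49 ± 0.333 in cerebellum (limma adjusted p = 1 for each). Without the 4 newborn replicate 1 arrays the cerebellar difference of Ldha was 0.04, and that of Tpi1 went from -0.43 ± 0.407 to 0.00. Aldoa, the muscle and ubiquitous aldolase, read 4720 and 3750 in cortex MatDp7 and 2146 and 4069 in PatDp7, a difference of -0.50 ± 0.306 that was 0.12 without those arrays. The cortex difference of Ldha kept its sign without any 1 array, from -0.86 to -0.22, and its replicate 2 pair was at -0.12. The sum of 10 meningeal markers on cerebellum PatDp7 replicate 1 was 4874, the lowest of the newborn arrays, whose newborn MatDp7 range was 19838 to 25062, and its part in these values was not tested.

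Among the other members, Hif1a was lower in 6 of 6 pairs on its representative probe set, by 0.50 and 0.51 in the cortex pairs and by 0.01 to 0.39 in the rest, while its other 2 tested probe sets were lower in 4 and 3 of 6. It read 1390 and 1832 in cortex MatDp7 and 971 and 1274 in PatDp7, a difference of -0.50 ± 0.255 (adjusted p = 1), and 1782 against 2420 at 13.5 dpc. Higd1a, which encodes a mitochondrial inner membrane protein, had the lowest 15.5 dpc difference, with 1794 and 1329 in MatDp7 and 961 and 1075 in PatDp7. The difference was -0.58 ± 0.383 (adjusted p = 1). Eno2 differed by -0.46 ± 0.447 at 15.5 dpc with overlapping arrays, and Pfkp by -0.43 ± 0.582 (adjusted p = 1 for each). Pfkp read 389 and 677 in MatDp7 and 379 and 361 in PatDp7. The replicate 1 and 2 pairs were at 0.06 and -0.97 for Eno2 and at -0.03 and -0.82 for Pfkp. The replicate 2 pair holds the MatDp7 array with the beta-actin ratio of 1.45.

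**Figure D4:**
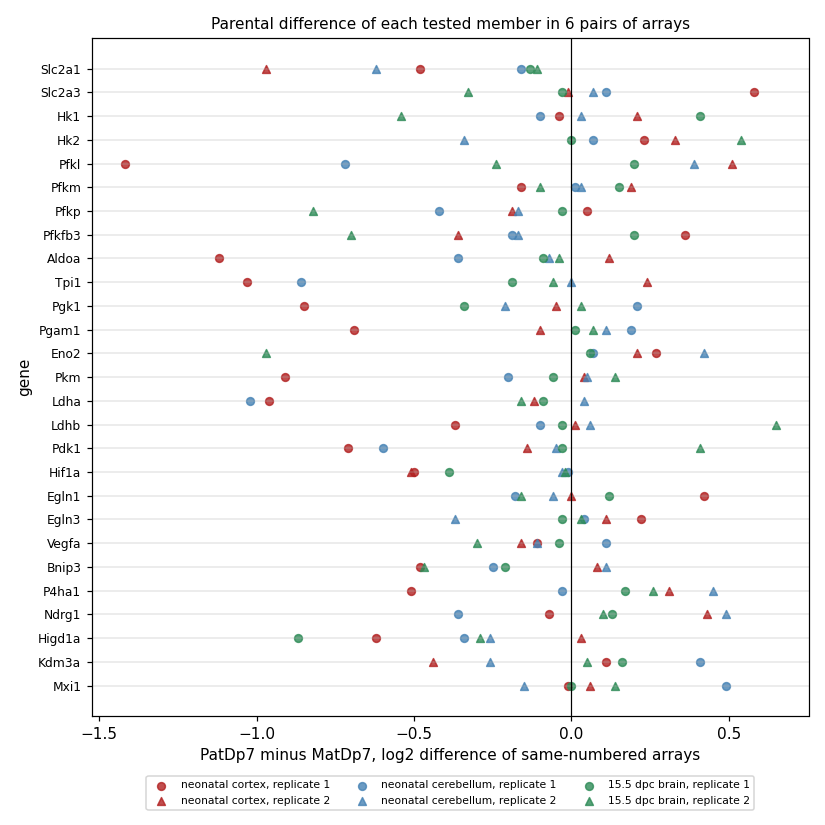
PatDp7 minus MatDp7 on the log2 scale (x axis) between same-numbered arrays for 27 tested members (y axis), with tissues in colours, replicate 1 as circles and replicate 2 as triangles. All 6 points of Slc2a1 and of Hif1a lie left of 0, and the cortex replicate 1 circles of Pfkl, Aldoa and Tpi1 lie farthest to the left.

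The regional comparison set newborn cortex against newborn cerebellum, averaged over the duplications. No member was called (0 of 27 by limma, 6 at an unadjusted p under 0.05), where 0.368% of all probe sets were. The median of the members was -0.14, with 18 lower and 9 higher in cortex, beside 0.022 over all probe sets. Leaving out 1 array it ran from -0.23 (cortex PatDp7 replicate 2) to -0.03 (cortex PatDp7 replicate 1), with -0.22 and -0.21 without replicate 1 of cerebellum MatDp7 and PatDp7 and -0.07 without cerebellum PatDp7 replicate 2. Ndrg1, a stress-induced gene of glia and neurons, read 782, 723, 741 and 990 in cortex (MatDp7 replicates 1 and 2, then PatDp7 replicates 1 and 2, the order used from here on) and 613, 430, 465 and 624 in cerebellum. On the representative probe sets it was the only tested member whose regions did not overlap (1 of 27, 3.7%, beside 5.99% of all probe sets). The difference of Ndrg1 was 0.56 ± 0.169 (adjusted p = 0.38). Its probe set 1456174_x_at did not overlap either, while its probe sets 1423413_at, 1450976_at and 1450977_s_at overlapped between the regions.

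Higd1a read 592, 817, 368 and 838 in cortex and 998, 1438, 779 and 1191 in cerebellum. Only the lowest cerebellar array fell within the cortex range, and the difference was -0.74 ± 0.271 (adjusted p = 0.546). With the replicate block Higd1a was the only member called (adjusted p = 0.019), where 3.43% of all probe sets were. Aldoa read 4720, 3750, 2146 and 4069 in cortex and 5422, 6157, 4226 and 5847 in cerebellum, at -0.60 ± 0.216 (adjusted p = 0.545). Eno2, the neuronal enolase, differed by -0.57 ± 0.316 (adjusted p = 0.773).

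The age comparisons set newborn tissue against 15.5 dpc whole brain, so age and brain part differ together. They share the 15.5 dpc arrays and are given side by side. In newborn cortex against 15.5 dpc no member was called (0 of 27 by limma, 8 at an unadjusted p under 0.05), where 5.63% of all probe sets were, and in newborn cerebellum 2 of 27 were, where 7.38% were. The median of the members was -0.26 in cortex and -0.29 in cerebellum, beside 0.0028 and -0.031 over all probe sets. It was -0.16 in cortex without cortex PatDp7 replicate 1, and in cerebellum -0.12 and -0.15 without cerebellum MatDp7 or PatDp7 replicate 1. Groups did not overlap for 8 members in cortex (29.6%, beside 24.4% of all probe sets), all lower at birth (14.5% of all probe sets were), and for 9 in cerebellum (33.3%, beside 25.3%), 3 higher and 6 lower (9.86% and 15.4% of all).

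Slc2a3, the neuronal glucose transporter, and Kdm3a, a histone H3 lysine 9 demethylase induced by HIF, were the members called. Slc2a3 read 2290, 2741, 2470 and 2890 in newborn cerebellum and 1294, 1704, 1271 and 1341 at 15.5 dpc. The cerebellar arrays were all above the 15.5 dpc arrays, with means of 2598 ± 269 (SD, n = 4) and 1402 ± 203 (n = 4), and Slc2a3 rose by 0.87 ± 0.204 (adjusted p = 0.0376). In cortex Slc2a3 read 1336, 2388, 2023 and 2374, overlapping 15.5 dpc through 1 array, at 0.49 ± 0.204 (adjusted p = 0.165). Of its other 3 probe sets 2 were called in cerebellum, at 0.67 and 0.83, and the third differed by 0.56.

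Kdm3a read 326, 508, 451 and 415 in newborn cerebellum, 412, 618, 450 and 443 in cortex and 699, 879, 789 and 908 at 15.5 dpc. Both newborn tissues lay under every 15.5 dpc array, with means of 425 ± 76.3 in cerebellum, 481 ± 93.3 in cortex and 819 ± 94.5 at 15.5 dpc (SD, n = 4 each). Kdm3a fell by 0.88 ± 0.183 in cerebellum (adjusted p = 0.0274) and differed by -0.72 ± 0.183 in cortex (adjusted p = 0.0543). The Slc2a3 call was lost without any 1 of the 8 cerebellar and 15.5 dpc arrays, where the difference ran from 0.77 to 0.97. The Kdm3a call was lost without any of those 8 arrays but cerebellum MatDp7 replicate 2, at -1.02 to -0.74.

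Lower glycolysis and pyruvate reduction were mixed in cortex and had no called member. Pgk1, Tpi1, Pkm and Ldha read under every 15.5 dpc array there, and Pgam1, Eno2 and Ldhb overlapped the 15.5 dpc arrays. Pgk1, phosphoglycerate kinase, read 3901, 4823, 2145 and 4649 in cortex, 3907, 7645, 4532 and 6605 in cerebellum and 7751, 6421, 6116 and 6539 at 15.5 dpc. Every cortex array was under every 15.5 dpc array, at -0.84 ± 0.29 (adjusted p = 0.114), while the cerebellum overlapped, at -0.29 ± 0.29. Ldha read 3952, 3340, 3701 and 2991 at 15.5 dpc, all above its 4 cortex arrays given above, and differed by -0.71 ± 0.235 (adjusted p = 0.105).

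Tpi1 read 3408, 3213, 2979 and 3082 at 15.5 dpc, also above all cortex arrays, and differed by -0.68 ± 0.288 (adjusted p = 0.169). Pkm, pyruvate kinase of muscle and brain, read 2319, 3060, 1209 and 3153 in cortex, 2053, 3249, 1783 and 3373 in cerebellum and 3468, 3874, 3320 and 4281 at 15.5 dpc. It differed by -0.69 ± 0.326 in cortex (adjusted p = 0.208) and -0.55 ± 0.326 in cerebellum (adjusted p = 0.314). In Pkm the newborn replicate 2 arrays came within reach of the 15.5 dpc level and the replicate 1 arrays did not. Pgam1, phosphoglycerate mutase, had the same shape, with 1659, 2269, 1011 and 2113 in cortex, 1089, 2234, 1250 and 2407 in cerebellum and 2257, 2147, 2277 and 2263 at 15.5 dpc. Its cerebellar difference of -0.43 ± 0.315 was 0.05 without the 4 newborn replicate 1 arrays. Ldhb at 15.5 dpc read 3568, 3242, 3488 and 5110, which the newborn replicate 2 arrays reached.

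Upper glycolysis was mixed. Pfkl, the liver phosphofructokinase isozyme, read 1368, 914, 480 and 1321 in cortex, 1529, 1219, 905 and 1619 in cerebellum and 1655, 2655, 1910 and 2242 at 15.5 dpc. It had the largest negative cortex difference of the members, -1.09 ± 0.329 (adjusted p = 0.0819), and -0.67 ± 0.329 in cerebellum (adjusted p = 0.232), with both tissues under all 15.5 dpc arrays. The other Pfkl probe set differed by only -0.23 ± 0.196 in cortex (adjusted p = 0.454) and -0.19 ± 0.196 in cerebellum (0.571), with overlapping arrays. Pfkp read 389, 677, 379 and 361 at 15.5 dpc and differed by 0.62 ± 0.411 in cortex (adjusted p = 0.346), where the replicate 1 arrays overlapped 15.5 dpc and the replicate 2 arrays lay above it. Aldoa read 3653, 3825, 3439 and 3715 at 15.5 dpc, under all cerebellar arrays, at 0.55 ± 0.216 (adjusted p = 0.154). Pfkfb3, which makes the activator fructose 2,6-bisphosphate, read 134, 244, 111 and 212 in cerebellum and 260, 417, 307 and 236 at 15.5 dpc, at -0.67 ± 0.317 (adjusted p = 0.22), and its other probe set differed by -0.06 ± 0.156 there. Hexokinase 1, Hk1, read 2174, 3058, 2021 and 3115 in cerebellum and 1523, 2319, 2039 and 1577 at 15.5 dpc, at 0.46 ± 0.251 (adjusted p = 0.28).

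Eno2 read 563, 1177, 687 and 1367 in cortex, 1070, 1429, 1124 and 1932 in cerebellum and 574, 886, 599 and 426 at 15.5 dpc. All cerebellar arrays were above all 15.5 dpc arrays, at 1.10 ± 0.316 (adjusted p = 0.0676), and the cortex overlapped, at 0.53 ± 0.316 (adjusted p = 0.299). The sum of 12 neuronal markers ran from 46558 to 54704 in newborn cortex, 46980 to 66743 in newborn cerebellum and 34978 to 41028 at 15.5 dpc, and that of 11 cell cycle genes from 5051 to 6533, 5122 to 5967 and 11966 to 15593. Both sums move with age, and their part in the members' differences was not tested.

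Of the oxygen sensing genes, Hif1a read 1981, 1758, 1961 and 1722 in cerebellum and 1996, 2232, 1509 and 2196 at 15.5 dpc, overlapping at -0.08 ± 0.181, and differed by -0.54 ± 0.181 in cortex (adjusted p = 0.107), against -0.15 ± 0.151 and -0.01 ± 0.156 on its other 2 tested probe sets. The hydroxylase gene Egln3, itself a HIF target, read 276, 273, 331 and 299 in cortex, 253, 314, 261 and 232 in cerebellum and 356, 370, 347 and 379 at 15.5 dpc. Both tissues lay under every 15.5 dpc array, at -0.26 ± 0.128 (adjusted p = 0.218) and -0.39 ± 0.128 (adjusted p = 0.0963). Egln1 read 656, 843, 574 and 804 in cerebellum and 860, 1029, 937 and 917 at 15.5 dpc, at -0.37 ± 0.167 (adjusted p = 0.201), and its other probe set differed by -0.13 ± 0.25.

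Other HIF targets had the same sign in part. Higd1a lay under 15.5 dpc on every cortex array, at -0.95 ± 0.271 (adjusted p = 0.0713). Its other tested probe set had the opposite sign, at 0.24 ± 0.235 in cortex (adjusted p = 0.517) and 0.89 ± 0.235 in cerebellum (adjusted p = 0.0536), so Higd1a has no settled direction with age. That probe set read 564, 652, 442 and 936 in cerebellum and 307, 425, 322 and 232 at 15.5 dpc, without overlap. Ndrg1 read 740, 695, 813 and 748 at 15.5 dpc, above all cerebellar arrays, at -0.47 ± 0.169 (adjusted p = 0.125). Its probe set 1456174_x_at did not overlap there either, while its probe sets 1423413_at, 1450976_at and 1450977_s_at did. Mxi1, a MYC antagonist gene, read 642, 843, 919 and 756 in cerebellum and 1000, 1057, 998 and 1167 at 15.5 dpc, at -0.40 ± 0.162 (adjusted p = 0.157), and its other probe set differed by -0.15 ± 0.124. Bnip3, a mitophagy receptor, and P4ha1, a collagen prolyl hydroxylase subunit, overlapped 15.5 dpc in both tissues, as did Vegfa, the vessel growth factor, with differences of -0.22 and 0.30, -0.40 and -0.37, and 0.08 and 0.18 for cortex and cerebellum.

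With the newborn replicate number as a block, 13 of 27 members were called in cortex, where 37.7% of all probe sets were, and 13 of 27 in cerebellum, where 35.8% were. In cortex 3 were higher (Slc2a3, Pfkp and Eno2) and 10 lower (Pfkl, Tpi1, Pgk1, Pgam1, Pkm, Ldha, Ldhb, Hif1a, Higd1a and Kdm3a). In cerebellum 4 were higher (Slc2a3, Hk1, Aldoa and Eno2) and 9 lower (Pfkfb3, Pgam1, Pkm, Ldhb, Egln1, Egln3, Ndrg1, Kdm3a and Mxi1). These calls are of the representative probe sets, and of the 30 other tested probe sets of 17 members, 20 had the sign of the representative in cortex and 24 in cerebellum. Among those not called with the block were the other probe sets of Pfkl, Higd1a and Hif1a in cortex and of Pfkfb3, Egln1 and Mxi1 in cerebellum, and the other Higd1a probe set was called higher in cerebellum (adjusted p = 0.00196). This fit treats the shift between newborn replicate numbers as an offset that the 15.5 dpc arrays do not carry, and takes the newborn level midway between the numbers. Leaving out 1 array gave 0 to 3 calls in cortex, the 3 being Pfkl, Pgk1 and Higd1a without cortex PatDp7 replicate 2.

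The earliest step compared 15.5 with 13.5 dpc brain. Eno2 was the only member called (1 of 27, where 5.04% of all probe sets were). It read 158 in MatDp7 and 124 in PatDp7 at 13.5 dpc and 574, 886, 599 and 426 at 15.5 dpc. Both 13.5 dpc arrays were under the other 12 arrays, and Eno2 rose by 1.77 ± 0.387 (limma adjusted p = 0.0359), a call lost without any 1 of the 15.5 dpc arrays or the cerebellum MatDp7 arrays, at 1.62 to 1.91. Across the tissues its mean went from 141 ± 24.4 (SD, n = 2) at 13.5 dpc through 621 ± 192 at 15.5 dpc and 948 ± 385 in newborn cortex to 1389 ± 395 in newborn cerebellum (n = 4 each). The neighbouring means of the last 3 did not differ past the threshold.

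Groups did not overlap for 17 of 27 members (63%), 9 higher and 8 lower at 15.5 dpc, where 44.2% of all probe sets did not overlap with only 2 arrays at 13.5 dpc (22.7% higher and 21.4% lower). Higher were Hk1, Pfkm, Pfkp, Pfkfb3, Eno2, Ldhb, Egln3, Ndrg1 and Mxi1, and lower were Slc2a1, Slc2a3, Hk2, Aldoa, Tpi1, Pgk1, Ldha and Pdk1. These are the representative probe sets. All other probe sets of Aldoa and Pgk1, and 1456174_x_at of Ndrg1, overlapped between the ages. The lower group holds hexokinase 2 and the muscle-type lactate dehydrogenase subunit, and the higher group holds hexokinase 1 and the heart-type subunit, but none of these was called. Ldha differed by -0.40 ± 0.288 (limma adjusted p = 0.545) and Ldhb by 0.48 ± 0.547 (adjusted p = 0.749). Ldhb probe set 1455235_x_at overlapped, unlike its other probe sets, with 1415 and 1997 at 13.5 dpc and 3093, 1420, 2831 and 2648 at 15.5 dpc. Hk1 read 1083 and 963 at 13.5 dpc and differed by 0.81 ± 0.308 (adjusted p = 0.182). Hk2 read 423 and 438 at 13.5 dpc and 266, 241, 266 and 375 at 15.5 dpc, at -0.52 ± 0.21 (adjusted p = 0.213). Pfkfb3 read 123 and 137 at 13.5 dpc and had the second largest increase of the tested members, 0.94 ± 0.388 (adjusted p = 0.226), but 0.21 ± 0.192 with overlapping arrays on its other probe set (adjusted p = 0.664).

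At 13.5 dpc Ndrg1 read 411 and 493, at 0.67 ± 0.207 (adjusted p = 0.105), and Mxi1 read 761 and 673, at 0.53 ± 0.199 (adjusted p = 0.182). Pfkp read 266 and 229, at 0.71 ± 0.504 (adjusted p = 0.538), and Slc2a3 read 2310 and 1917, above all 15.5 dpc arrays, at -0.58 ± 0.25 (adjusted p = 0.251). With the block 7 of 27 members were called (background 20.8%): Eno2, Hk1, Pfkp, Pfkfb3, Ndrg1 and Mxi1 higher and Slc2a3 lower at 15.5 dpc.

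The 13.5 dpc arrays also carried more signal of other tissues. The sum of 9 erythroid markers was 31702 to 37543 at 13.5 dpc and 3315 to 8597 at 15.5 dpc, that of 8 skeletal muscle markers 4005 to 5194 and 392 to 611, and that of 10 meningeal markers 48447 to 50353 and 20603 to 25604. The neuronal sum was 14376 to 17697, under the 15.5 dpc range given above. Xist was high on both 13.5 dpc arrays, at 5760 in MatDp7 and 4374 in PatDp7. At 15.5 dpc it was low on replicate 1 (217 and 198) and high on replicate 2 (5323 and 4329). The part of these cells, or of what Xist marks, in the members' differences was not tested.

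**Figure D5:**
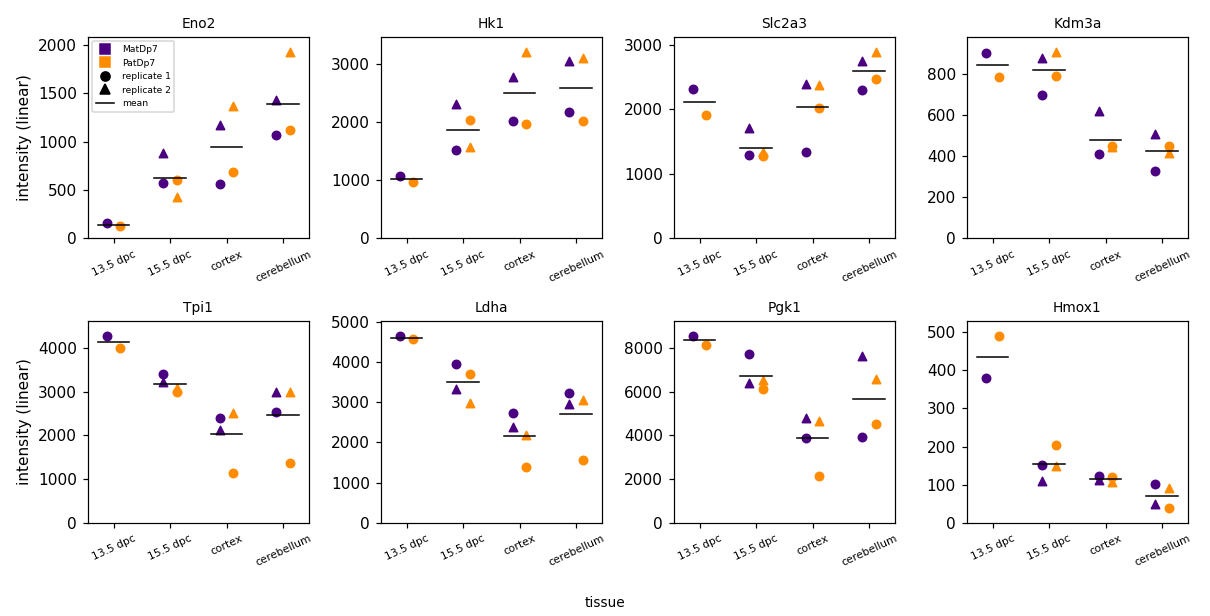
Linear intensity (y axis, from 0) of 8 members on 14 arrays by tissue (x axis), with duplications in colours, replicate numbers as symbols and a line at the mean of the tissue. Eno2 goes from a mean of 141 at 13.5 dpc to 1389 in newborn cerebellum, Kdm3a is lower in both newborn tissues, and Hmox1 is highest at 13.5 dpc, at 381 and 490.

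The members under the filter were read from a fit without it. Hmox1, heme oxygenase, read 381 and 490 at 13.5 dpc and 152, 109, 204 and 149 at 15.5 dpc, and fell by 1.26 ± 0.266 (adjusted p = 0.0292, where 4.8% of the 22626 probe sets were called). P4ha2, a collagen prolyl hydroxylase subunit, read 326 and 201 against 116, 90.1, 79.1 and 100, at -1.07 ± 0.266 (adjusted p = 0.0564). In both genes the 13.5 dpc arrays, which carry the erythroid and meningeal signal given above, stood over all other arrays. Epas1, the other HIF alpha subunit, read 24.6 to 77.5 on the newborn replicate 1 arrays and 203 to 309 on replicate 2. Adm, adrenomedullin, read 5.96 to 21.7 on all arrays, under the added constant, and Car9, a carbonic anhydrase, read 91.5 to 347. The 5′ control probe set of Gapdh read 10190 to 14086, both ends of this range on newborn replicate 1 arrays.

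Related genes were read from 6 lists. Of 8 tested glucose and lactate transporters, Slc16a1, the monocarboxylate transporter of endothelium and glia, rose from 15.5 dpc by 0.69 ± 0.15 in newborn cortex (adjusted p = 0.0357) and 0.79 ± 0.15 in cerebellum (0.0198), and fell by 0.81 ± 0.184 between 13.5 and 15.5 dpc (0.0393). Of 6 pentose phosphate genes, 2 fell and none rose in both newborn tissues against 15.5 dpc. These were Rpe, ribulose phosphate epimerase, at -0.84 ± 0.14 in cortex and -0.66 ± 0.14 in cerebellum, and Taldo1, transaldolase, at -0.70 ± 0.15 and -0.65 ± 0.15.

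Of 22 genes of pyruvate dehydrogenase and the citric acid cycle, Dlat, its acetyltransferase subunit, rose by 0.64 ± 0.126 in cortex (adjusted p = 0.0281) and 0.78 ± 0.126 in cerebellum (0.0113) against 15.5 dpc. Sdhd, a succinate dehydrogenase subunit, fell by 1.15 ± 0.277 in cortex (0.0467), and no gene of this list passed between 15.5 and 13.5 dpc. Of 12 other glycolytic and gluconeogenic genes, Bpgm, which makes 2,3-bisphosphoglycerate in red cells, fell by 1.01 ± 0.198 in cortex against 15.5 dpc (0.0277). Between 13.5 and 15.5 dpc, Eno3, the muscle enolase, fell by 0.97 ± 0.19 (0.0237) and Aldoc, the brain aldolase, rose by 1.55 ± 0.338 (0.0357). The erythroid sum was 599 to 1250 in newborn cortex, under the 15.5 dpc range given above, as Bpgm was lower there. The muscle sum given above moves in the same direction as Eno3 between 13.5 and 15.5 dpc. The part of red cells and muscle in these differences was not tested.

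Of 25 further HIF targets, Ccng2, a cyclin, fell by 0.91 ± 0.157 in cerebellum against 15.5 dpc (adjusted p = 0.0147), and Lox, a collagen cross-linking enzyme, fell by 2.57 ± 0.298 between 13.5 and 15.5 dpc (0.00412), where the meningeal sum also fell. Of 13 genes of the oxygen sensing machinery, Siah1a, a ubiquitin ligase, fell by 1.03 ± 0.223 in cerebellum against 15.5 dpc (0.03). No gene of the 6 lists was called in PatDp7 against MatDp7 over the 3 tissues or between cortex and cerebellum, by limma over all probe sets. The list medians for the parental comparison ran from -0.14 to -0.02, beside 0.00024 over all probe sets.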

How the data were processed

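The deposited file holds linear intensity. The submitters' processing notes name MAS5 with no version. Trimmed by 2%, the mean of each array was 500.13 to 500.15, so no further scaling was done. The number of arrays limits the precision. Probe sets were named through the platform annotation, with symbols updated to the GRCm38.p6 gene table. Analyses used log2(intensity + 52.0273), the constant being the 20th percentile, which understates changes of low genes, and all log2 differences are on this scale. Probe sets whose mean log2 value was under the 40th percentile were left out, and the other 13576 entered limma 3.58.1 in R 4.3.3, as 8 group means with an intensity trend, 6 residual and 3.15 prior degrees of freedom, and Benjamini-Hochberg adjustment over all of them. A call is an adjusted p under 0.05, and ± on a log2 difference is the standard error. The 13.5 dpc groups have 1 array each and are assumed to vary like the others. Python 3.11.15 with matplotlib 3.10.9 drew the figures.

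Members and related lists were chosen with earlier results of these data known, so their counts are descriptions. All members are named. Array values are printed for members called with or without the block, and for the 3 with the largest difference in a comparison. Related lists give up to 3 genes with the smallest p. Added after seeing the data were Slc2a1's other probe sets, Tpi1, Aldoa and Hk2 values where array order is described, and the fits without one newborn replicate number. Promoter motifs were searched in 250 bases before the start. The fit was tested on simulated data.

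Same-numbered arrays deviated together: deviations from the group means correlated at 0.71 to 0.816 in the 6 pairs of newborn groups and at -0.0922 to 0.264 in the other 9 pairs. The fit without the block treats the arrays as independent, so its residual spread, and the p-values from it, include this shared shift. The labels do not state what a number stands for.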

Additional observations from a re-analysis of the deposited data

How the results depend on the processing

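With the newborn replicate number as a block (5 residual and 6.82 prior degrees of freedom), the number of members called went from 0 to 1 between cortex and cerebellum, from 0 to 13 in cortex and from 2 to 13 in cerebellum against 15.5 dpc, and from 1 to 7 between 15.5 and 13.5 dpc. It stayed at 0 in each parental comparison. Estimates are the same in both fits and errors differ.

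Leaving out 1 of 12 arrays gave 0 to 3, 0 to 2 and 0 to 1 calls in the 3 age comparisons, and 0 in the others. Without the 4 newborn replicate 1 arrays the calls were 3, 5 and 4, and without the 4 newborn replicate 2 arrays 11, 12 and 4, alternatives chosen after seeing the data. Both of these fits left 1 array in each newborn group. In both, more of all tested probe sets were also called in each age comparison than with all arrays. The rise in calls was therefore not particular to the members. For cortex against 15.5 dpc a filter at the 60th percentile, median scaling and the mean of a gene's probe sets gave 1 call each, and no filter gave 2 calls between 15.5 and 13.5 dpc. Differences that changed sign were Aldoa in cortex (0.12), and in cerebellum Tpi1 (0.00) and Ldha (0.04), between duplications, and Pgam1 in cerebellum against 15.5 dpc (0.05), all without the newborn replicate 1 arrays, and Tpi1 without cerebellum PatDp7 replicate 1 (0.12, with -0.97 to 0.12 over the 12 omissions). The cause was not tested. All other differences of the named members kept their sign under the other constants (10th and 30th percentile), filters, quantile normalization and the fit without a trend. With 2 arrays a group, differences near the spread between replicates were not detectable.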
